A study of Mus musculus with 7 samples.

Results

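The respiratory chain genes are the nuclear genes for the subunits of the 5 oxidative phosphorylation complexes and for cytochrome c. They were taken by symbol, as every gene named alone by a probe set whose symbol begins with Nduf, Uqcr, Atp5, Cox4, Cox5, Cox6, Cox7 or Cox8, or is Sdha, Sdhb, Sdhc, Sdhd, Cycs or Cyc1. The array held 73 such genes in 101 probe sets, of 8251 genes named by 1 or more probe sets. They divide into 29 genes of complex I, 4 of complex II, 8 of complex III, 15 of complex IV, 14 of complex V, cytochrome c (Cycs) and 2 complex I assembly factors (Ndufaf1 and Ndufaf4). The symbols also take in Cox7a2l, which helps to join complexes III and IV into supercomplexes, and isoforms mainly of striated muscle (Cox6a2, Cox7a1) or testis (Cox6b2, Cox8c).

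The series measured mRNA in whole mouse uterus on 7 Affymetrix U74Av2 microarrays, 1 per group. C57BL/6 females aged 10 to 11 weeks had been ovariectomized 7 days before death and received dihydrotestosterone (DHT), a natural androgen that is not converted to estrogen, subcutaneously at 0.1 mg per mouse. The 6 DHT groups were killed 1, 3, 6, 12, 18 and 24 h after injection and the vehicle group 24 h after its injection, so all groups lack ovaries and only the 24 h DHT group is matched in time to vehicle. For the other 5 groups an effect of DHT and an effect of the hours since injection cannot be told apart. RNA was pooled within a group; the labels mention 10 mice without saying whether that is the size of each pool. The array titles give an 18 h group where the series' design text gives 0.5 h, and the titles were followed.

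Complexes I, III and IV of the inner mitochondrial membrane pass electrons from NADH to oxygen and pump protons. Complex II feeds in electrons from succinate, cytochrome c carries them from complex III to complex IV, and complex V, the ATP synthase, uses the proton gradient to make ATP. Most subunits are encoded in the nucleus and imported, and their genes are known to be transcribed in part through NRF1, NRF2 (an ETS factor), YY1 and the estrogen-related receptors.

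Values are MAS5 signal intensities on a linear scale, with each array scaled by the authors to a common trimmed mean. A floor was set at 145.9, the 40th percentile over the 7 arrays; lower signals were given that value and log2 was taken. Each gene was read from the brightest of its probe sets, and 65 of the 73 members had a mean above the floor, 60 of them on every array. The 8 genes under it were Atp5j2, Cox5a, Cox6a2, Cox7a1, Cox8a, Ndufa12, Ndufc2 and Ndufs4, none of which exceeded the floor on any array. The members nearest to the floor from below were Ndufs4, at most 138.1, and Cox6a2, at most 134.1, and those nearest from above were Cycs, Atp5k, Ndufa1 and Ndufaf4, which exceeded it on 4, 3, 2 and 4 of the 7 arrays. On each array 39.4% to 40.8% of all probe sets lay under the floor. The log2 ratio of 3′ to 5′ control signals, a measure of RNA integrity, lay between -0.27 and -0.17 for Gapdh and between 0.04 and 0.26 for actin.

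With 1 array per time no single time can be tested. The DHT arrays were therefore joined into late (12, 18 and 24 h) and early (1, 3 and 6 h), and limma compared late with early, late with vehicle and early with vehicle over all 8421 probe sets above the floor. The spread within a phase is therefore a spread between times, and the lone vehicle array was assumed to have the same spread. Differences are on the log2 scale with their standard error (SE), and p-values were adjusted by Benjamini-Hochberg. Signals of a gene are listed for the vehicle array, then the early arrays in the order 1, 3, 6 h, then the late arrays in the order 12, 18, 24 h.

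Respiratory chain genes were higher late after DHT than early, by a modest and widely shared amount. Over the 65 genes the median log2 ratio to vehicle was 0.02, 0.05 and 0.09 on the early arrays (1, 3 and 6 h) and 0.28, 0.32 and 0.28 on the late arrays (12, 18 and 24 h). The median of all 6326 genes was 0.00 at each time. The median of the respiratory chain genes averaged 0.29 ± 0.02 over the late arrays and 0.05 ± 0.03 over the early arrays (SD, n = 3 arrays each). This SD is a spread between times, not between replicates, and leaves out the error of the vehicle array that all ratios share. The number of members above vehicle was 36, 38, 41, 47, 56 and 54 over the 6 times.

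**Figure D1:**
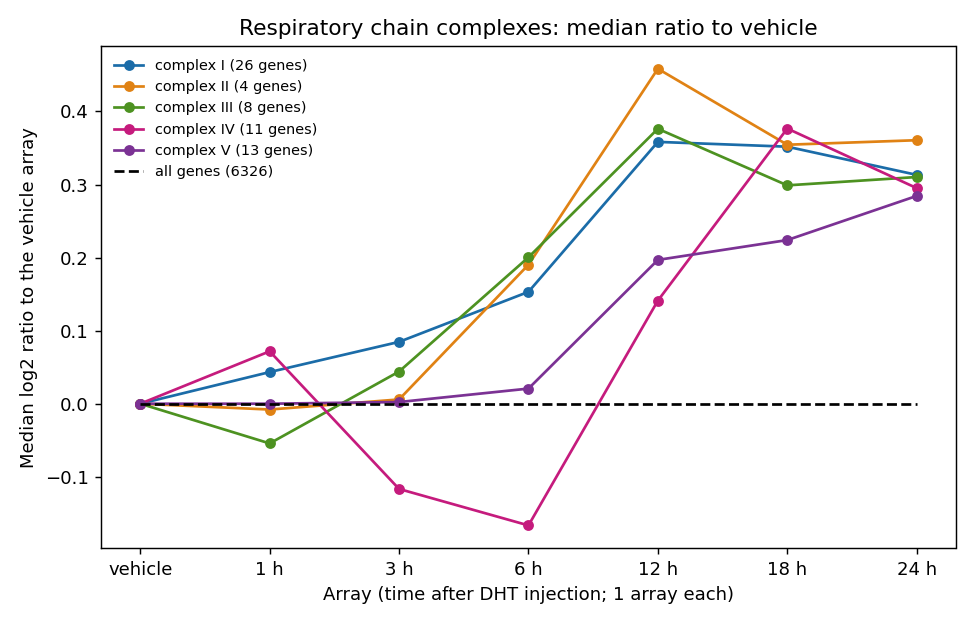
Median log2 ratio to the vehicle array (vertical axis) on the vehicle array and at 6 times after DHT (horizontal axis, 1 array each) for the genes of each complex, with the median of all 6326 genes as a dashed line. At 12, 18 and 24 h the medians of all 5 complexes lie above 0, between 0.14 and 0.46, while at 3 and 6 h that of complex IV lies below it.

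The late arrays were highest for most members. For 53 of the 65 genes (81.5%) the highest of the 7 arrays was a late one, against 39.6% of all genes, with 22 genes highest on the 12 h array, 19 on the 18 h array and 12 on the 24 h array. The lowest array was vehicle for 20 members, 1 h for 14 and 3 h for 11. Among all 6326 genes these arrays were lowest for 852, 683 and 979, so the share at 3 h was near that of all genes. For 30 of 65 members (46.2%) the 3 late arrays all exceeded the 3 early arrays, which held for 8.49% of all genes, and for 28 members they exceeded the vehicle array too, against 6.81% of all genes. Cyc1, in the brighter of its probe sets that disagree, was the only member with all late arrays below all early ones, against 7.27% of all genes. Among the 49 members at or above the lower quartile of the members' brightness, 53.1% had all late arrays above the early ones, against 9.4% of the 2393 other genes at least as bright.

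No member passed the adjusted test. The median late minus early difference was 0.22, from -0.72 to 0.60, and 52 of 65 differences were above 0; over all genes the median was -0.00263. At an unadjusted p under 0.05, 26 members were higher late (40%) and 1 was lower, against 5.9% and 4.9% of all genes. Leaving out 1 array at a time gave 14 to 25 higher members, with 16 without the 1 h array, 14 without the 3 h array, 14 without the 12 h array and 17 without the 24 h array. After adjustment 0 members were called, as were 0% of all genes, with a lowest adjusted p among members of 0.212. In late against vehicle the median difference was 0.27, from -0.73 to 0.86, with 55 of 65 above 0. There 23 members were higher and 1 lower at an unadjusted p under 0.05, against 5.83% and 5.85% of all genes, and 0 were called after adjustment, against 0.285%. In early against vehicle the median was 0.08 and 43 of 65 lay above 0. At an unadjusted p under 0.05, 3 members were higher and 0 lower, against 2.7% and 3.41% of all genes, and 0 were called after adjustment, against 0.237%. The comparisons with vehicle share its 1 array.

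At the single times, counts of members at least 1.5-fold from vehicle were largest at 12 h. At 1 h, 2 members were higher by that much and 0 lower, against 3.18% and 2.69% of all genes. At 3 h, 1 was higher and 0 lower, against 5.09% and 4.82%. At 6 h, 4 were higher (6.15%) and 1 lower, against 6.88% and 6.23%, so up to 6 h the shares of higher members were near or under those of all genes. At 12 h, 13 were higher (20.0%) and 3 lower (4.62%), against 8.55% and 7.02% of all genes. At 18 h, 10 were higher (15.4%) and 1 lower, against 5.77% and 5.42%. At 24 h, the time matched to vehicle, 7 were higher (10.8%) and 1 lower, against 5.07% and 4.92%. In all, 10 members were at least 1.5-fold from vehicle at 2 or more times, 8 of them higher (Atp5md, Atp5mpl, Cox7b, Ndufb6, Ndufv2, Ndufv3, Uqcr11, Uqcrq) and 2 lower (Cox7a2l and the brightest probe set of Cyc1). Among all genes 17.0% met that rule, near the members' own 10 of 65.

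Among markers of the cell types of the uterus, those of smooth muscle and stroma also had higher sums late than early. All 9 smooth muscle, all 10 epithelial and 8 of 9 stromal markers on the array had a mean above the floor, as the labelled tissue would have. So did all 7 adipocyte and all 5 endothelial markers, 5 of 7 blood and immune markers and 4 of 10 striated muscle markers. Detection by this rule therefore does not single out the labelled tissue. The summed signal of 9 smooth muscle markers had a log2 ratio to vehicle of -0.10, -0.13, -0.06, 0.25, 0.50 and 0.65 over the 6 times, and for 9 of these 9 genes the late arrays all exceeded the early ones. A sum is weighted to the brightest genes, unlike the median of per-gene ratios given for the chain. That median was -0.12, -0.19, -0.11, 0.17, 0.38 and 0.58 for smooth muscle. The sum of 9 stromal markers stood at 0.09, 0.10, 0.06, 0.24, 0.47 and 0.62 over the same times. The median of the 8 above the floor was 0.11, 0.13, 0.32, 0.63, 0.67 and 0.58, with 3 of the 8 below vehicle at 12 h. Of these 8, 4 had all late arrays above the early ones, and Vim was under the floor throughout. The sum of 10 epithelial markers stayed between -0.11 and 0.10 at all 6 times, and their median between -0.15 and 0.16. The sum of 7 adipocyte markers was 0.04, -0.17, -0.14, -0.29, -0.59 and -0.59 over the 6 times. Their median was -0.15, 0.44, -0.28, -0.04, -0.04 and -0.29, so sum and median differ in sign at 1 and 3 h. Of 10 striated muscle markers 6 were under the floor on every array, and their sum lay between -0.54 and -0.16. The blood and immune markers summed to between -0.50 and 0.06 and the endothelial markers to between -0.30 and 0.06. The part of these shifts in the values of the respiratory chain genes was not tested, and in whole uterus more cells of a type and more RNA per cell cannot be told apart.

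**Figure D2:**
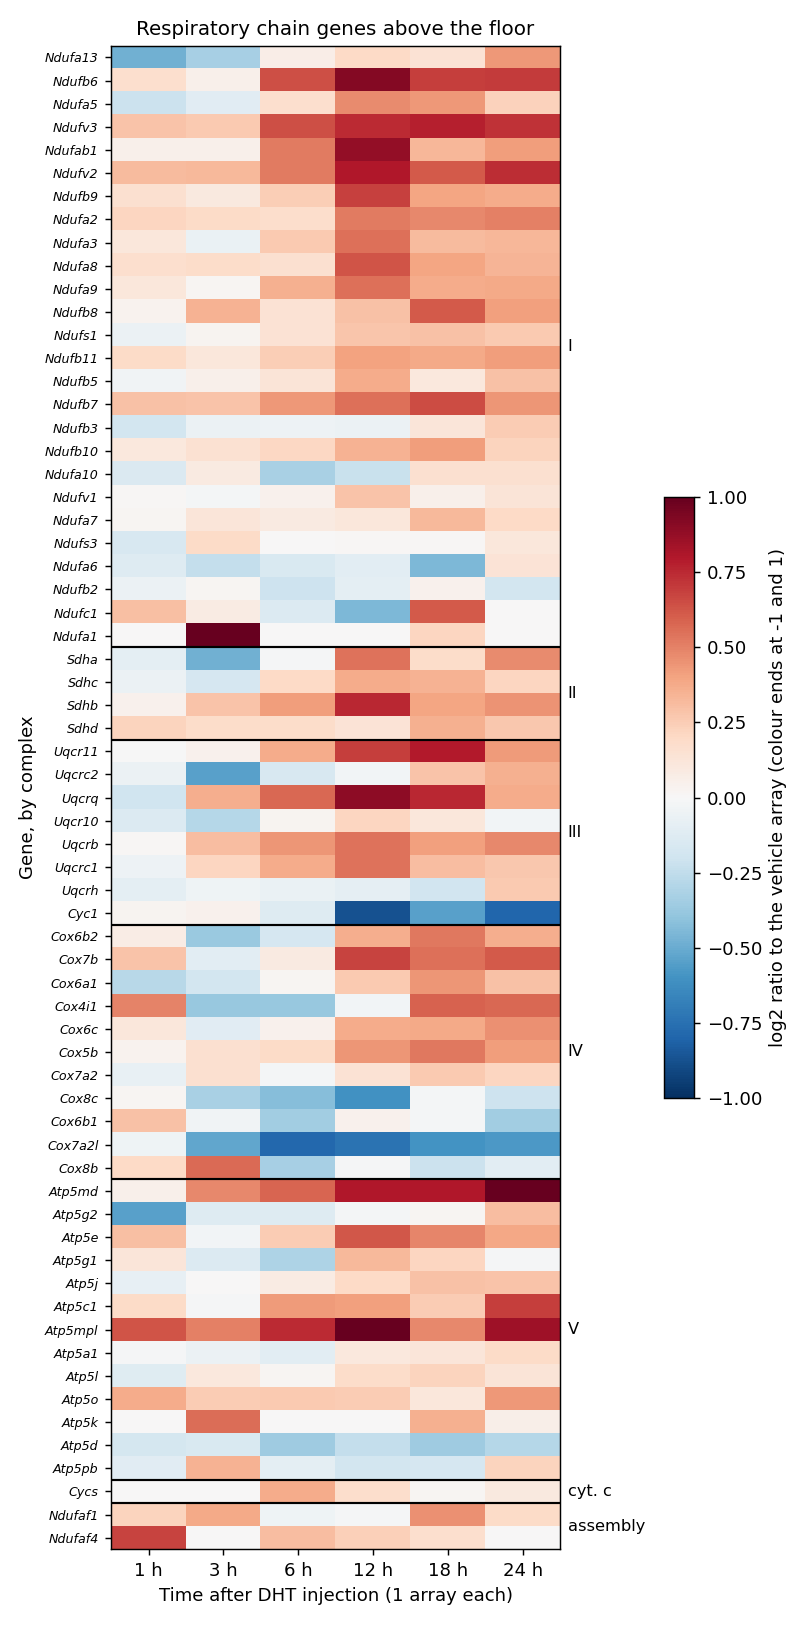
Log2 ratio to the vehicle array (colour, red higher and blue lower) of the 65 members above the floor (vertical axis, by complex and in each from the highest to the lowest late minus early difference) at 6 times after DHT (horizontal axis, 1 array each). The columns at 12, 18 and 24 h are mostly red, with Cyc1 (its brighter probe set only) and Cox7a2l the deepest blue. Values under the floor count as the floor, so pale cells include genes not measured above it.

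Promoters were searched for the letters of 6 motifs, because many members were higher on the same arrays and the factors named above are known to act on these genes. RefSeq start sites of the mouse build GRCm38.p6 gave a promoter for 59 of the 73 members, and the 250 bases before the start were read on both strands. The NRF1 letters GCGCATGC stood in 9 of 59 promoters (15.3%), against 2.56% of 27025 genes with a promoter and 5.12% of the 5061 genes with a promoter among those tested. The ETS letters CCGGAAG stood in 12 (20.3%), against 7.83% of all promoters and 15.6% of tested genes. The letters CCAAT stood in 25 (42.4%), against 37.5% and 40.2%, and AGAACA, part of the androgen receptor's element, in 7 (11.9%), against 18.2% and 13.5%. AAGGTCA for the estrogen-related receptors stood in 2 (3.39%), against 4.7% and 3.79%, and AAGATGGC for YY1 in 1 (1.69%), against 1.83% and 2.35%. CCAAT and the other motifs do not share letters in the windows shown.

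To show where the NRF1 letters lie, the 100 bases before the start are given for the 6 members that hold them there, 5′ to 3′ on the gene's strand, with the NRF1 and CCAAT letters of either strand in capitals (on the other strand they read GCATGCGC and ATTGG). Atp5g2 lies at chr15:102671048-102671147 on the minus strand, Atp5k at chr5:108434400-108434499 (minus), Cycs at chr6:50566570-50566669 (minus), Ndufa6 at chr15:82354292-82354391 (minus), Ndufa8 at chr2:36049339-36049438 (minus) and Sdhb at chr4:140961171-140961270 (plus).
Atp5g2: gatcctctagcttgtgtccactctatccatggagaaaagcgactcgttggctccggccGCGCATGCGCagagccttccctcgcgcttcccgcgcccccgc
Atp5k: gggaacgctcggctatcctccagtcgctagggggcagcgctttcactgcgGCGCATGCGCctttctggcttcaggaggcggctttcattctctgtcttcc
Cycs: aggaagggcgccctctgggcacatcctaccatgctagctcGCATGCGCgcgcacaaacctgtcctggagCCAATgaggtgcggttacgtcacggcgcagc
Ndufa6: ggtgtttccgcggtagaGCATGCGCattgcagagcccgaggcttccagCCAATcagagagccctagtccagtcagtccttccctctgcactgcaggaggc
Ndufa8: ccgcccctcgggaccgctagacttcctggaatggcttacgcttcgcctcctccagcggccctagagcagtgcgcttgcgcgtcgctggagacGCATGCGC
Sdhb: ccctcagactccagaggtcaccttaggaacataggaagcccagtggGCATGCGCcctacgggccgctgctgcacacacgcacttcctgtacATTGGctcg
In Atp5g2 and Atp5k the letters of both strands overlap in 1 run. The late minus early differences of these 6 genes differed: 0.37 for Atp5g2, 0.29 for Ndufa8 and 0.29 for Sdhb, but 0.03 for Ndufa6, -0.02 for Cycs and -0.05 for Atp5k. Over the 52 tested members with a promoter the median late minus early difference was 0.17 for the 9 with the NRF1 letters and 0.21 for the 43 without. For the ETS letters it was 0.19 for 12 with and 0.21 for 40 without, for CCAAT 0.25 for 21 with and 0.18 for 31 without, and for AGAACA 0.38 for 6 with and 0.21 for 46 without. For AAGGTCA it was 0.0891 for 2 with and 0.21 for 50 without, and for AAGATGGC 0.26 for 1 with and 0.21 for 51 without. These medians are descriptions, and no difference between them was tested.

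In complex I, the NADH dehydrogenase and the entry point of the chain, 24 of 26 genes had a late minus early difference above 0, 13 were higher at an unadjusted p under 0.05 and 0 lower, and for 15 of 26 (57.7%) the late arrays all exceeded the early ones. At that p 5.9% of all genes were higher and 4.9% lower, which stands beside the counts of the other complexes too. The complex's median log2 ratio to vehicle was 0.04, 0.08, 0.15, 0.36, 0.35 and 0.31 at 1, 3, 6, 12, 18 and 24 h. The accessory subunits (22 genes, median difference 0.24) and the catalytic core subunits (Ndufs1, Ndufs3, Ndufv1 and Ndufv2, median 0.19) both had medians above 0. Ndufa2, an accessory subunit of the NADH-oxidizing module, had the lowest p of the members in late against vehicle. The signal of Ndufa2 was 1015 with vehicle, 1175, 1157 and 1145 on the early arrays and 1454, 1418 and 1442 on the late arrays. The 3 late arrays lay within 1418 to 1454, above the early arrays, which in turn lay above vehicle. The difference was 0.31 ± 0.05 (SE) late against early and 0.50 ± 0.08 (SE) late against vehicle, with adjusted p of 0.212 and 0.125 by limma.

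Ndufv2 and Ndufv3 belong to the same module as Ndufa2, Ndufv2 as an iron-sulfur core subunit. Ndufv2 had a signal of 1336 with vehicle, 1662, 1670.3 and 1920.4 early and 2333, 2049.7 and 2224 late. For Ndufv3 the signals were 347 on the vehicle array, 424, 416 and 542 at the early times and 582, 594 and 574 at the late times. In both probe sets the 6 h array already stood above 1 and 3 h, vehicle was the lowest array, and the late and early arrays did not overlap. The late minus vehicle difference was 0.72 ± 0.12 (SE) for Ndufv2 (adjusted p = 0.151, limma) and 0.75 ± 0.19 (SE) for Ndufv3 (adjusted p = 0.278, limma). A dimmer probe set of Ndufv2, with the suffix _f, had 236 on the vehicle array, 268, 190.0 and 231 on the early arrays and 244, 247 and 248 on the late arrays. There 1 h was the highest and 3 h the lowest array, the phases overlapped, and the late minus vehicle difference was 0.06 ± 0.20 (SE).

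Ndufb6, Ndufb7 and Ndufb11 are accessory subunits of the membrane arm of complex I, where protons are pumped. The signal of Ndufb6 was 1425 with vehicle, 1599, 1473 and 2229 on the early arrays and 2691, 2301 and 2310.5 on the late arrays. For Ndufb6 the 12 h array was the highest, the 18 and 24 h arrays exceeded 6 h narrowly, and 6 h stood well above 1 and 3 h; its late minus vehicle difference, 0.77 ± 0.24 (SE), was the highest of complex I (adjusted p = 0.332, limma). Ndufb7 had a signal of 1935 with vehicle, 2367, 2364 and 2613 early and 2831, 3037 and 2621 late. For Ndufb11 the signals were 1475 on the vehicle array, 1688, 1595 and 1754 at the early times and 1946, 1922 and 1971 at the late times. For Ndufb7 and Ndufb11 all 6 DHT arrays exceeded vehicle and all 3 late arrays exceeded the early ones, with late minus vehicle differences of 0.55 ± 0.11 (SE) and 0.40 ± 0.08 (SE) (adjusted p = 0.190 and 0.192, limma).

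Ndufa13, a subunit also known as a cell death regulator (GRIM-19), was lowest at 1 and 3 h. The signal of Ndufa13 was 682 with vehicle, 488, 543 and 715 on the early arrays and 783, 754 and 921 on the late arrays. The late arrays exceeded all others. Its late minus early difference was the highest of complex I, 0.51 ± 0.17 (SE) (adjusted p = 0.421, limma), and its late minus vehicle difference was 0.26 ± 0.24 (SE). Ndufa1, a small membrane subunit, was dim. Ndufa1 had a signal of 138.8 with vehicle, 134.2, 301 and 122.9 early and 130.3, 169.7 and 115.6 late. The 3 h and 18 h arrays alone exceeded the floor, and its late minus early difference, -0.28 ± 0.30 (SE), was the lowest of the complex. For Ndufa6 the signals were 592 on the vehicle array, 542, 501 and 531 at the early times and 549, 433 and 651 at the late times. For Ndufa6, whose promoter is printed above, the late and early arrays overlapped, and the late minus vehicle difference was the lowest of the complex, -0.14 ± 0.24 (SE).

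Complex II, the succinate dehydrogenase shared with the citric acid cycle, had 4 genes, all above the floor and all above 0 in late minus early, with a median difference of 0.30. The median log2 ratio to vehicle was -0.01, 0.01, 0.19, 0.46, 0.35 and 0.36 over the 6 times. Sdha, the flavoprotein that oxidizes succinate, was lowest at 3 h. The signal of Sdha was 347 with vehicle, 325, 248 and 344 on the early arrays and 506, 393 and 481 on the late arrays. The late arrays all exceeded the early ones and vehicle, and the late minus early difference, 0.60 ± 0.18 (SE), was the highest of all members (adjusted p = 0.388, limma). Sdhb had a signal of 1318 with vehicle, 1355, 1607 and 1763 early and 2228, 1735 and 1803 late. Sdhb, the iron-sulfur subunit, was highest at 12 h; its 18 h array lay under its 6 h array, so the phases overlapped. It differed by 0.29 ± 0.14 (SE) late against early and by 0.54 ± 0.20 (SE) late against vehicle. For Sdhd the signals were 2366 on the vehicle array, 2764, 2681 and 2680.5 at the early times and 2605, 3032 and 2852 at the late times. All 6 DHT arrays of Sdhd, a membrane anchor, lay above vehicle, with the 12 h array the lowest of the 6. Its late minus early difference was the smallest of the complex, 0.06 ± 0.07 (SE), and it had 0.26 ± 0.10 (SE) against vehicle.

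**Figure D3:**
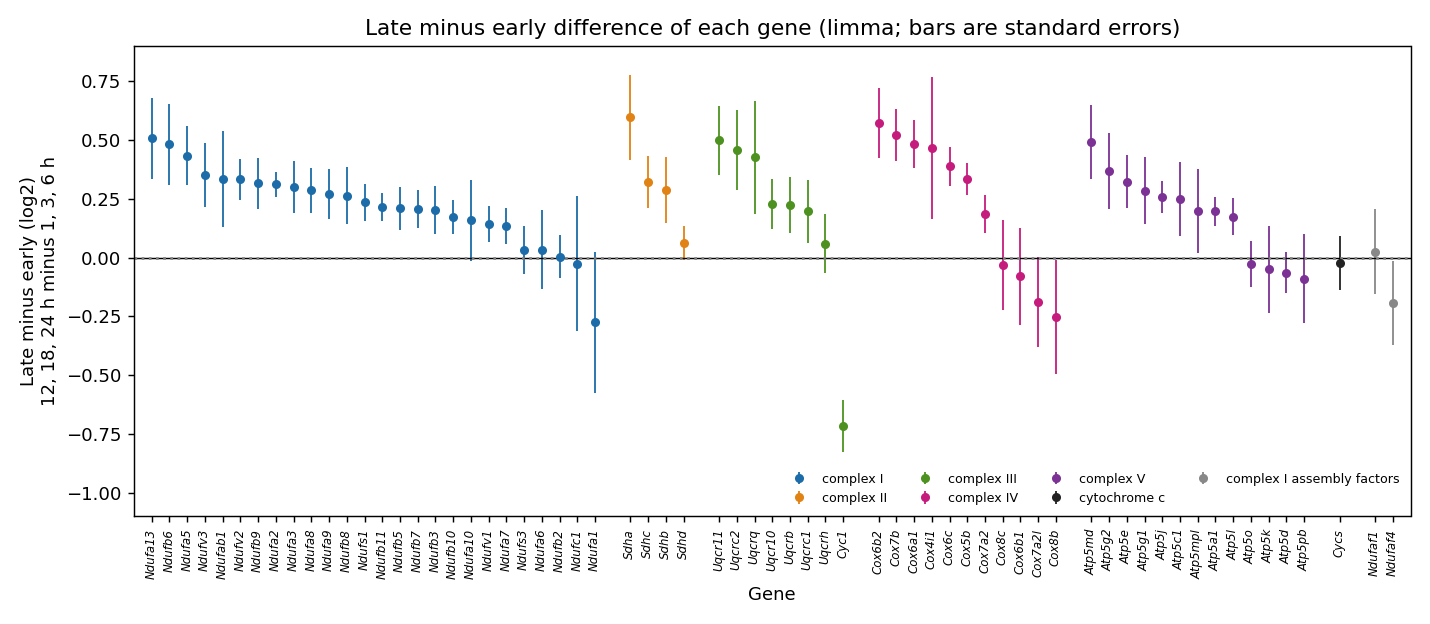
Late minus early difference (vertical axis, log2, mean of 12, 18 and 24 h minus mean of 1, 3 and 6 h) of the 65 members (horizontal axis, by complex); points are limma estimates and bars their standard errors, and the dotted line is the median of all genes. Of the 65 points 52 lie above 0, from Sdha at 0.60 down, and Cyc1 lies apart at -0.72. That point is the brighter probe set of Cyc1, and the other one, not drawn, had 0.20.

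In complex III, the cytochrome bc1 complex, 7 of 8 genes had a late minus early difference above 0, with a median of 0.23, and 2 were higher and 1 lower at an unadjusted p under 0.05. The median ratio to vehicle was -0.05, 0.04, 0.20, 0.38, 0.30 and 0.31 over the 6 times. Uqcr11 and Uqcrq are small subunits of the membrane part. The signal of Uqcr11 was 946 with vehicle, 942, 977 and 1224 on the early arrays and 1525, 1640.0 and 1269 on the late arrays. Uqcrq had a signal of 2029 with vehicle, 1768, 2605 and 3022 early and 3765, 3416 and 2622 late. Uqcr11 peaked at 18 h and Uqcrq at 12 h; the late and early arrays of Uqcr11 did not overlap, whereas Uqcrq was lower at 24 h than at 6 h. Their late minus early differences were 0.50 ± 0.15 (SE) and 0.43 ± 0.24 (SE), and their late minus vehicle differences 0.64 ± 0.21 (SE) and 0.67 ± 0.34 (SE) (adjusted p = 0.344 and 0.504, limma). Uqcrb, another small subunit, had 0.48 ± 0.17 (SE) against vehicle. For Uqcrc2 the signals were 1029.9 on the vehicle array, 991, 705 and 923 at the early times and 1011, 1256 and 1315 at the late times. Uqcrc2, a core subunit, was lowest at 3 h, with late arrays above the early ones and on both sides of vehicle, and differed by 0.46 ± 0.17 (SE) late against early.

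Cyc1, the cytochrome c1 of complex III, was measured by a pair of probe sets that disagreed in sign. The signal of Cyc1 was 8018 with vehicle, 8191, 8257 and 7317 on the early arrays and 4392, 5507 and 4624 on the late arrays. This brighter probe set, whose name ends in _r_at, stood far lower on all 3 late arrays than on any other array, with a late minus early difference of -0.72 ± 0.11 (SE) (adjusted p = 0.212, limma) and -0.73 ± 0.16 (SE) against vehicle. The other probe set, a plain one without a suffix, had 4030 on the vehicle array, 3853, 4586 and 5695 on the early arrays and 6038, 5127 and 4896 on the late arrays. Its differences were 0.20 ± 0.17 (SE) late against early and 0.40 ± 0.23 (SE) late against vehicle, on the same side of 0 as most members. The suffix _r marks a probe set for which the array's maker had to relax its rules of probe choice, and which of the pair follows the Cyc1 transcript was not tested.

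Ndufb2, an accessory subunit of complex I, also had a pair of bright probe sets, with the suffixes _r and _f. Ndufb2 had a signal of 3351 with vehicle, 3223, 3389 and 2899.9 early and 3136, 3451 and 2951 late. This is the brightest, with the suffix _r; the slightly dimmer one, with the suffix _f, had 2193 on the vehicle array, 2252, 2331 and 2761 on the early arrays and 3408, 2967 and 2842 on the late arrays. Its late arrays all exceeded the early ones, while those of the brightest probe set overlapped them. The late minus vehicle differences were -0.08 ± 0.13 (SE) for the brightest and 0.48 ± 0.16 (SE) for the dimmer probe set. In all, 9 members had several probe sets above the floor: the late minus early sign was the same across the probe sets in 7 of the 9, and the late minus vehicle sign in 3 of the 9. The 7 include Ndufb2, at 0.33 and 0.00399, and Cox4i1, at 0.47 and 0.000605, where a shared sign says little. They also include Ndufa3, Atp5g1 and Cox6b2, each with a probe set that exceeded the floor on 3 arrays only. In these dimmer probe sets all 3 early arrays lay under the floor, so the late minus early sign could not be negative. In that of Cox6b2 the vehicle array lay under it too, which fixed the late minus vehicle sign in the same way. Atp5d had 4 probe sets between -0.06 and 0.20 late against early. Ndufa3, an accessory subunit of complex I, had 0.40 ± 0.16 (SE) late against vehicle in its brighter probe set and -0.39 ± 0.07 (SE) in one that exceeded the floor on 3 arrays. For Cox4i1 the probe sets had 0.47 ± 0.30 and 0.00 ± 0.17 (SE) late against early, near the floor in both. Late against vehicle they had opposite signs, 0.38 ± 0.43 and -0.56 ± 0.25 (SE).

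**Figure D4:**
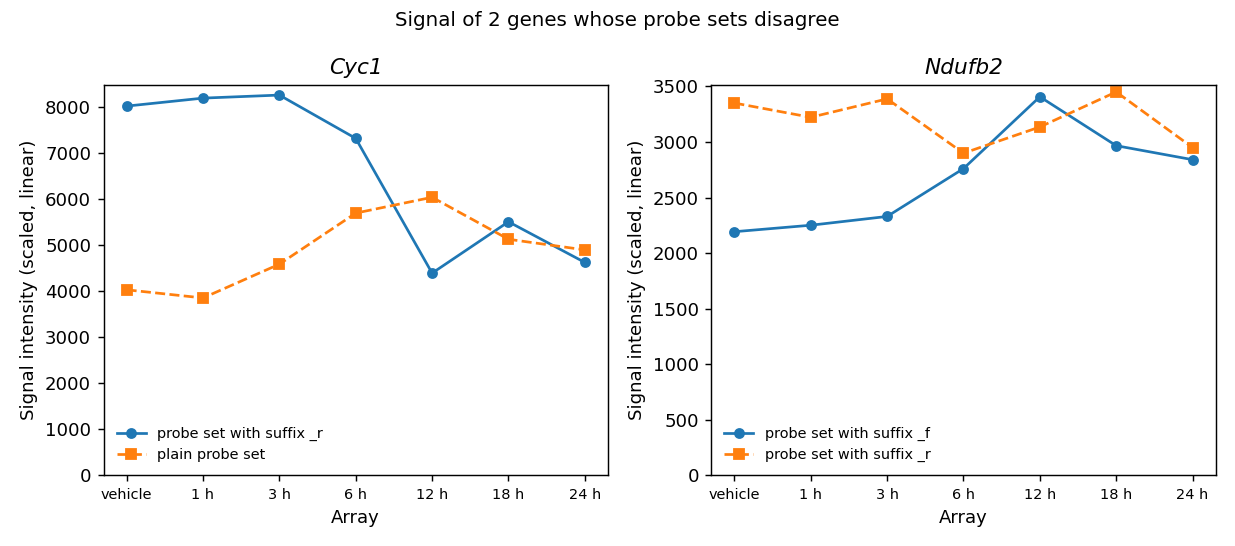
Signal intensity (vertical axis, linear, scaled by the authors) of both probe sets above the floor for Cyc1 and for Ndufb2 on the 7 arrays (horizontal axis, 1 array each). For Cyc1 the probe set with the suffix _r is at 4392 to 5507 on the late arrays against 7317 to 8257 on the early ones, while the plain one is at 4896 to 6038 late; for Ndufb2 the probe set with the suffix _f reaches 2842 to 3408 late while the one with the suffix _r shows no split between the phases.

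In complex IV, cytochrome c oxidase, the members divided. Of 11 genes above the floor, 7 had a late minus early difference above 0 and 5 were higher at an unadjusted p under 0.05, 0 lower. The 4 below 0 were Cox7a2l, the muscle form Cox8b, the testis form Cox8c (-0.03 ± 0.19, SE) and Cox6b1 (-0.08 ± 0.21, SE). Cox8b and Cox6b1 were read from probe sets with the suffix _r. Cox8c was read from a plain probe set at 1004.5 to 1551.6, and its other probe set lay under the floor on all 7 arrays, at most 20.3. The median difference was 0.33, but it was 0.14 without the 1 h array and 0.16 without the 18 h array. It was 0.0218 with the floor at the 20th percentile, 0 with no filter on low values and 0.0922 with plain probe sets only, those without a suffix. The median ratio to vehicle was 0.07, -0.12, -0.17, 0.14, 0.38 and 0.30 over the 6 times, the only complex with a median below vehicle at 6 h. Cox5b, Cox6a1 and Cox6c are nuclear subunits around the catalytic core, Cox6a1 being the widely expressed form of its subunit. For Cox5b the signals were 1903 on the vehicle array, 1955, 2123 and 2171 at the early times and 2589.7, 2739 and 2545 at the late times. The signal of Cox6a1 was 5184 with vehicle, 4271, 4563 and 5251 on the early arrays and 6218, 7053 and 6361 on the late arrays. Cox6c had a signal of 5984 with vehicle, 6459, 5519 and 6170.5 early and 7723, 7769 and 8205 late. In each of these genes the late arrays all exceeded the early arrays and vehicle. The late minus early differences were 0.33 ± 0.07 (SE), 0.48 ± 0.10 (SE) and 0.39 ± 0.08 (SE), with adjusted p of 0.257, 0.265 and 0.266 by limma.

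Cox7b, a small subunit needed for assembly of the enzyme, was also higher late. For Cox7b the signals were 951 on the vehicle array, 1157, 886 and 1014 at the early times and 1517, 1395 and 1451 at the late times. The late arrays stood together above all others, and the differences were 0.52 ± 0.11 (SE) late against early and 0.61 ± 0.16 (SE) late against vehicle (adjusted p = 0.268 and 0.273, limma). The signal of Cox6b2 was 410.0 with vehicle, 431, 318 and 365 on the early arrays and 529, 590.3 and 526 on the late arrays. The late arrays of Cox6b2, known as the testis form of its subunit, exceeded the early ones and vehicle, with the highest late minus early difference of the complex, 0.57 ± 0.15 (SE). Its probe set carries the suffix _f, which marks probes shared with similar transcripts. The same suffix stands, among others, on the brightest probe sets of Cox6a1, Cox6c, Uqcrb, Uqcrc2, Atp5d, Atp5g2 and Atp5md. Cox7a2, the widely expressed form of its subunit, had 0.18 ± 0.08 (SE).

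Cox7a2l went the other way against vehicle. Cox7a2l had a signal of 3538 with vehicle, 3427, 2471 and 2054 early and 2116, 2338 and 2378 late. It was near vehicle at 1 h and lower from 3 h on, lowest at 6 h, so the phases overlapped. The late minus vehicle difference was -0.64 ± 0.27 (SE) (adjusted p = 0.452, limma) and the late minus early difference -0.19 ± 0.19 (SE). For Cox8b the signals were 454 on the vehicle array, 520.5, 672 and 359.9 at the early times and 451, 392 and 422 at the late times. For Cox8b, a subunit form known mainly from heart and skeletal muscle, the 3 h array was the highest and the 6 h array the lowest. Its late minus early difference was the lowest of the complex, -0.25 ± 0.24 (SE). These values come from a probe set with the suffix _r, and the plain probe set of Cox8b lay under the floor on all 7 arrays, at most 121.4. The muscle forms Cox6a2 and Cox7a1 were listed under the floor on all 7 arrays, at most 134.1 and 58, as were the widely expressed Cox5a and Cox8a, at most 133.1 and 42.8 in their brighter probe sets.

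In complex V, the ATP synthase, 9 of 13 genes had a late minus early difference above 0, 4 were higher at an unadjusted p under 0.05 and 0 lower. The median difference was 0.20, and the median ratio to vehicle was 0.00, 0.00, 0.02, 0.20, 0.22 and 0.28 over the 6 times. The F1 head, which makes ATP, had a median difference of 0.22 over 4 genes and the remaining subunits 0.20 over 9. The 4 head genes were Atp5a1, Atp5c1, Atp5d and Atp5e, and Atp5b of the head was not among the members. Atp5md and Atp5mpl are small proteins of the membrane part. The signal of Atp5md was 2002 with vehicle, 2073, 2801 and 3004 on the early arrays and 3481, 3483 and 4000.1 on the late arrays. Atp5mpl had a signal of 1322 with vehicle, 2039, 1877 and 2217 early and 2916, 1842 and 2384 late. Atp5md was higher on each late array than on any early one, whereas Atp5mpl was already 0.63 above vehicle on the log2 scale at 1 h and its phases overlapped. Their late minus vehicle differences were the highest of all members, 0.86 ± 0.22 (SE) and 0.82 ± 0.25 (SE) (adjusted p = 0.271 and 0.320, limma).

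Other ATP synthase genes varied less. Atp5c1, the central stalk of the F1 head, had 0.25 ± 0.16 (SE) late against early in its brightest probe set and 0.28 ± 0.11 (SE) in another. For Atp5d the signals were 998 on the vehicle array, 883, 897 and 781 at the early times and 845, 779.8 and 821 at the late times. All 6 DHT arrays of this probe set of Atp5d, also of the head, lay below vehicle, and its late minus vehicle difference was the lowest of the complex, -0.29 ± 0.12 (SE). Its 3 other probe sets above the floor had late minus vehicle differences of -0.16, -0.07 and 0.35, the last with all 6 DHT arrays above vehicle. The signal of Atp5pb was 285 with vehicle, 264, 362 and 267 on the early arrays and 251, 254 and 332 on the late arrays. The 3 h and 24 h arrays of Atp5pb, the b subunit of the outer stalk, were the only DHT arrays above vehicle, and its late minus early difference was the lowest of the complex, -0.09 ± 0.19 (SE). Atp5g2 had a signal of 715 with vehicle, 492, 652 and 653 early and 706, 723 and 883 late. For Atp5g2 the late arrays lay above the early ones but on both sides of vehicle. Its values come from a probe set with the suffix _f, and its plain probe set lay under the floor on all 7 arrays, at most 120.7. Atp5g2 and Atp5g1 encode the same mature protein, of the membrane ring, and had late minus early differences of 0.37 ± 0.16 (SE) and 0.28 ± 0.14 (SE).

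Cytochrome c itself, Cycs, was dim. For Cycs the signals were 100.8 on the vehicle array, 118.2, 140.9 and 189 at the early times and 165, 148 and 156 at the late times. Vehicle, 1 h and 3 h lay under the floor, the other 4 arrays above it, with 6 h the highest, and the late minus early difference was -0.02 ± 0.11 (SE). The assembly factors Ndufaf1 and Ndufaf4 had differences of 0.02 and -0.19, and for neither did the phases separate.

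Other mitochondrial lists were described by the same counts. Beside them, 5.9% of all genes were higher and 4.9% lower late against early at an unadjusted p under 0.05 (limma). Of 56 mitochondrial ribosomal protein genes, which translate the mitochondrial mRNAs, 42 had a late minus early difference above 0 (75.0%), 7 were higher and 1 lower at an unadjusted p under 0.05, and for 11 the late arrays all exceeded the early ones (19.6%); the median difference was 0.13. Their median ratio to vehicle was highest at 12 h, at 0.32, against 0.21 at 6 h and 0.14 and 0.16 on the later arrays. The citric acid cycle and pyruvate dehydrogenase had a median difference of 0.20 over 15 genes (13 above 0, 3 higher and 0 lower at an unadjusted p under 0.05). Fatty acid oxidation had 0.14 over 14 genes (12 above 0, 3 higher, 0 lower), the carriers of the mitochondrial membranes 0.26 over 8 (8 above 0, 1 higher, 0 lower) and protein import 0.13 over 14 (9 above 0, 1 higher, 2 lower). The share of protein import genes that were higher, 7.14%, was near that of all genes. In 9 further assembly factors of the complexes the median was 0.08, with 5 above 0 and none separating the phases. After adjustment 0 genes of these lists were called in any of the contrasts with late, as in the lists that follow. Mitochondrially encoded subunits, which are made inside the organelle, were not analysed here.

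Of the listed regulators of mitochondrial biogenesis 12 were on the array and 9 had a mean above the floor. The 9 were Esrra, Gabpa, Gabpb1, Polg2, Polrmt, Pprc1, Ssbp1, Tfb2m and Yy1. Ppargc1a, Ppargc1b, Nrf1, Tfam and Esrrg were not among them, so nothing is said here of those genes. Over the 9 genes the median difference was -0.04, with 3 above 0. At an unadjusted p under 0.05, 0 of them were higher and 1 was lower, against 5.9% and 4.9% of all genes. Pprc1, a coactivator related to PGC-1, was highest at 3, 6 and 12 h. It had 129.1 on the vehicle array, 166.1, 254 and 262.5 on the early arrays and 241.9, 170.4 and 147 on the late arrays. Tfb2m, a factor of mitochondrial transcription, had a late minus vehicle difference of 0.58 ± 0.16 (SE, adjusted p = 0.284, limma), and all 6 DHT arrays lay above vehicle by 0.39 to 0.68 on the log2 scale. Polg2, the accessory subunit of the mitochondrial DNA polymerase, was -0.55 ± 0.21 (SE, adjusted p = 0.402, limma) against vehicle.

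Cytosolic ribosomal proteins had a median late minus early difference of 0.00 over 26 genes, 13 of them above 0, and 1 (3.85%) had all late arrays above the early ones. Proteasome subunits had 0.15 over 35 genes, with 27 above 0, and a median ratio to vehicle of 0.29 already at 6 h. At an unadjusted p under 0.05, 3 of them were higher (8.57%) and 2 lower, near the 5.9% and 4.9% of all genes. Glycolysis had 0.18 over 13 genes, with 11 above 0, 2 higher and 0 lower. Of the lists in the plot of genes without overlap, the smooth muscle markers had the highest share, 9 of 9, and complex I the next, 57.7%; the difference between lists was not tested.

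**Figure D5:**
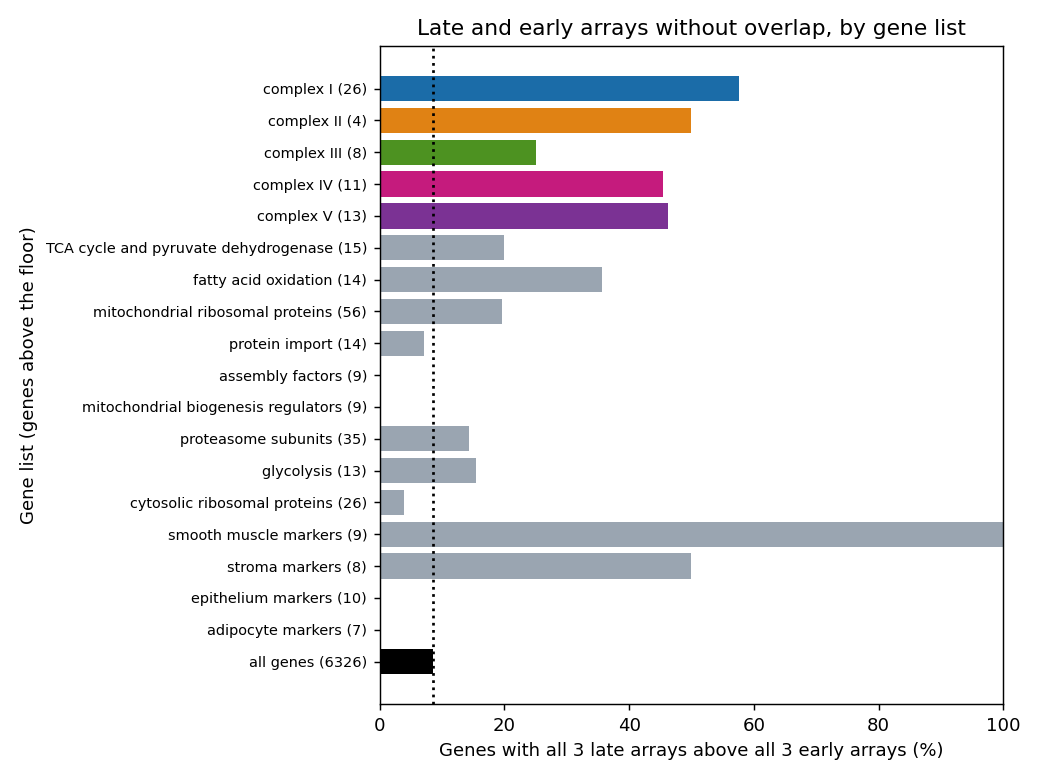
Share of the genes of each list (vertical axis, number of genes above the floor in brackets) whose 3 late arrays all lie above the 3 early arrays (horizontal axis, percent); the dotted line is the share of all genes, 8.49%. Complexes I, II, IV and V lie between 45.5% and 57.7% and complex III at 25%, against 19.6% for mitochondrial ribosomal proteins, 3.85% for cytosolic ribosomal proteins and 100% for smooth muscle markers.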

How the data were processed

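The deposited table holds signal intensity for 12488 probe sets on 7 arrays, which the authors computed with MAS5 (version not given), as the submitters' processing notes record. Tested on the values, every array has the same trimmed mean, and this scaling was kept. Gene names came from the platform's annotation; 10833 probe sets named 1 gene, and those naming several were kept apart. The 66 control probe sets entered no test.

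Signals were raised to a floor of 145.9 (the 40th percentile), and log2 was taken. The 8421 probe sets with a mean above the floor were tested with limma 3.58.1 in R 4.3.3 (variance trend, 4 residual degrees of freedom, prior 1.69), two-sided, adjusted by Benjamini-Hochberg at 0.05. Counts over genes use the brightest probe set of each of 6326 genes. The test was checked on simulated data. Nothing in the labels pairs arrays across groups, and the number of arrays, 1 per group, limits the precision of every value.

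The members, their lists and the motifs were chosen with earlier results of these data known. In full, the text names in each complex the genes with the highest and lowest differences, the 5 members with the lowest p in late against early and in late against vehicle, members at least 1.5-fold from vehicle at 2 or more times, tissue isoforms and genes whose probe sets disagree. Alternatives changed the floor, filter, scaling, variance trend, fold threshold and choice of probe set, and left out each array in turn.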

Additional observations from a re-analysis of the deposited data

How the results depend on the processing

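With 1 array per time, no value at a single time has a replicate, and signals near the floor have no order. The median late minus early difference over all members stayed within 0.19 to 0.26 when 1 array was left out, and the ranges were 0.19 to 0.25 for complex I, 0.23 to 0.40 for complex II, 0.15 to 0.31 for complex III, 0.14 to 0.36 for complex IV and 0.18 to 0.24 for complex V. The median of complex IV was 0.0218 with the floor at the 20th percentile, 0 with no filter and 0.0922 with plain probe sets only (those without a suffix, an alternative chosen after seeing the data). Complex V had 0.25 with the floor at the 20th percentile. With plain probe sets only, Cyc1 was 0.20 late against early and 0.40 late against vehicle, the reverse of its brighter probe set.

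The member median at 12 h was 0.25 with quantile normalization, 0.24 with arrays scaled to the same median above the floor, 0.21 with no filter, 0.24 with the mean of all probe sets and 0.25 with plain probe sets. At 18 h it was 0.29 with the floor at the 20th percentile, 0.29 with no filter and 0.29 with the mean of all probe sets. At 24 h it was 0.26 with quantile normalization, 0.26 with no filter and 0.26 with plain probe sets. At 3 h it was 0.0846 with plain probe sets, and at 6 h 0.0443 with the floor at the 20th percentile, 0.0516 with arrays scaled to the same median and 0.0418 with no filter.

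With a laxer threshold of 0.32 on the log2 scale, members apart from vehicle in either direction numbered 6, 16, 21, 34, 36 and 32 over the 6 times. At least 2-fold, there was 1 at 12 h and 0 on the arrays of 1, 6, 18 and 24 h. At 1.5-fold, the floor at the 20th percentile gave 5, 12 and 13 at 3, 6 and 24 h, the floor at the 60th percentile 1 and 0 at 1 and 3 h, quantile normalization 2 at 3 h, and the mean of all probe sets and plain probe sets 5 each at 24 h.

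Leaving out 1 array at a time left 14 to 25 members higher in late against early at an unadjusted p under 0.05, and 0 members called after adjustment in any contrast. With no filter, 1 member was called in late against vehicle, Ndufa2, at 0.50. Over all probe sets, 23 were called in early against vehicle; the count was 14 with quantile normalization, 121 with no filter, 0 with no variance trend, 11 with the mean of all probe sets, and 0 to 10 with 1 array left out. The 26 called in late against vehicle became 42 with the floor at the 60th percentile, 15 with quantile normalization, 137 with no filter, 0 with no variance trend, 12 with the mean of all probe sets, and 0 to 19 with 1 array left out. In late against early 0 were called, and 0 to 1 with 1 array left out. The cause of these changes was not tested.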

Other observations

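A further 10 probe sets name a respiratory chain gene together with a near copy or pseudogene, so the signals of such genes cannot be separated, and they entered no count. The probe set shared by Ndufa11, a membrane subunit of complex I, and Ndufa11b had 853.1 on the vehicle array, 941.2, 1437.0 and 1567.2 on the early arrays and 1881.9, 1645.6 and 1256.3 on the late arrays. Its log2 ratio to vehicle, 0.14, 0.75, 0.88, 1.14, 0.95 and 0.56 over the 6 times, was larger at 3 and 6 h than that of most members, and its late and early arrays overlapped.

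A pair of probe sets shared by Ndufs6, which is needed for the late assembly of complex I, and Ndufs6b disagreed. One had log2 ratios to vehicle of 0.48, 0.35 and 0.16 at the late times, and the other -0.20, 0.09 and -0.05. The probe set shared by Ndufs5 and its pseudogene had 0.32, 0.28 and 0.20 late, and -0.16, -0.30 and 0.28 early. The brighter of the probe sets for Cox7c, a subunit of complex IV, had -0.06, 0.18 and 0.27 late, and the other -0.16, -0.01 and -0.06.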
